A study of Mus musculus with 6 samples.

Results

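The transcripts described are those of 8 genes of 47719 in the deposited expression table, all chosen by gene symbol: 5 that encode parts of the superoxide-producing NADPH oxidase of phagocytes (Cybb, Cyba, Ncf1, Ncf4 and Rac2) and 3 that encode enzymes removing superoxide or the hydrogen peroxide made from it (Sod2, Cat and Gpx1). Each symbol had 1 row, so no row had to be chosen among several. All 8 passed the filter on low values, which asked for a mean FPKM of 1 or more across the 6 libraries.

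The phagocyte oxidase sits in the membrane as a pair of proteins, the catalytic subunit gp91phox and its partner p22phox, and is silent until cytosolic subunits and a Rac GTPase join it. It then passes electrons from NADPH to oxygen and releases superoxide. Superoxide dismutases turn superoxide into hydrogen peroxide, which catalase and glutathione peroxidases break down. Microglia, the resident macrophages of the brain and spinal cord, and neutrophils both carry this oxidase.

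The sequenced RNA came from spinal cord cells carrying CD11b, taken from mice of the inbred strain Biozzi ABH at an age of 3 months. The ECS group had electroconvulsive seizures, which are seizures evoked by a brief electrical stimulus, in 3 daily sessions, and the mice were killed 1 day after the last. The control group is labelled control and described as naive, whereas the treatment protocol names sham sessions, so which of these the controls had is not settled by the labels. Each group had 3 libraries and each library combined 5 mice, so that n is a number of pools. CD11b beads select microglia together with other myeloid cells. In such bulk RNA, fewer cells of a type and less RNA per cell cannot be told apart.

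Itgam, which encodes CD11b, was at 689.5, 504 and 558 FPKM (a read level corrected for transcript length and library size) in control libraries 1 to 3 and 747, 625 and 577 in ECS libraries 1 to 3. Of the microglial genes, Tmem119 was at 220.5 FPKM or more in every library. Neutrophil granule transcripts were abundant as well, with Ngp between 3664 and 8184 FPKM. The sum of FPKM ranged from 729831 to 1009665 over the 6 libraries. The number of genes above 0 ran from 11427 in ECS 1 to 14900 in ECS 2. Of the genes that passed the filter, 1580 were at 0 in ECS 1, where the next highest number was 806 in control 2. The number of reads is unknown, since FPKM does not keep it.

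Sequences before the RefSeq start site are shown for a membrane subunit pair, Cybb and Cyba, and for Sod2, because these 3 genes stand at different levels in the same libraries. They are the 250 bases before the start that RefSeq annotates (GRCm38.p6), written 5′ to 3′ on the strand of the gene, with motif matches in capitals. GENCODE places the outermost start of Cybb and of Sod2 further upstream, so these windows precede the RefSeq start and lie within the GENCODE gene, and 22 bases of the Sod2 window are exonic there. RefSeq promoters were matched for 6 of the 8 genes, and Ncf4 and Rac2 were not among them.
Cybb, chrX:9469325-9469574, minus strand: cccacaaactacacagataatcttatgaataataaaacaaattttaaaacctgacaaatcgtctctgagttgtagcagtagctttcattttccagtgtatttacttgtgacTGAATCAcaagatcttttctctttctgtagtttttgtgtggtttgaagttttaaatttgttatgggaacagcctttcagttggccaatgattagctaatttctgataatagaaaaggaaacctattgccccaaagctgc
Cyba, chr8:122432941-122433190, minus strand: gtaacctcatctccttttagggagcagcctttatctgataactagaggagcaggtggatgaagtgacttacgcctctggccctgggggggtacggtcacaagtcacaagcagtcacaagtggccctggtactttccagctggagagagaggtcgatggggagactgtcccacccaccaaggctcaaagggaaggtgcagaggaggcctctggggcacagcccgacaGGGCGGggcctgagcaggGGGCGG
Sod2, chr17:13007589-13007838, plus strand: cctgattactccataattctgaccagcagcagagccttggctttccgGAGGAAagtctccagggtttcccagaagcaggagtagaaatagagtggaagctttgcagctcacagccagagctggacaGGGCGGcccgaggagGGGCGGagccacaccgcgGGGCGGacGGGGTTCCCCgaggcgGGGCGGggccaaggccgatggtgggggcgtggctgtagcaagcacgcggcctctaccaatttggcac
The capitals in Cybb mark a match to the AP-1 motif (TGANTCA), 139 bases before the start. The capitals in Cyba mark 2 GC boxes (GGGCGG). In Sod2 they mark 4 GC boxes, 1 ETS core (GAGGAA) and 1 NF-kB motif, the last at 83 bases before the start.

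Both strands were searched for those 4 motifs and for PU.1 (GAGGAAGT, which contains the ETS core), the antioxidant response element (TGACNNNGC) and TATAAA. Of 32851 promoter windows of the same length, 6.75% held the AP-1 motif, 32.7% a GC box, 23.3% the ETS core and 3.90% the NF-kB motif. The PU.1 letters were held by 2.44% of them, the antioxidant response element by 10.2% and TATAAA by 12.4%. None of these 3 patterns was found in the windows of the 6 matched genes. In the Gpx1 window, however, 177 of the 250 bases are exonic in GENCODE, so most of it lies within the gene. Each motif was searched in a fixed form, so PU.1 or ETS sites in other letters were not counted. The base composition differed between the 3 printed windows: 34% of bases were G or C in Cybb, 60% in Cyba and 63.6% in Sod2, where the median over all windows was 52.4%. A match is a run of letters and not a measured binding site.

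None of the 8 genes passed the test between ECS and control, and in none were the groups apart. The test was limma on log2(FPKM + 1) over 11315 genes with Benjamini-Hochberg adjustment and a threshold of 0.05. It called 0 genes higher and 0 lower in ECS (0% in each direction). At an unadjusted p under 0.05, 194 genes (1.71%) had higher and 220 (1.94%) lower values, 414 in all (3.66%), and none of the 8 was among them. The control and ECS ranges were apart for 848 of the 11315 genes (7.49%), 3.7% with ECS higher and 3.79% with ECS lower, and for 0 of the 8. The log2 fold change (ECS minus control) was above 0 for 6 of the 8 and below 0 for 2, and the median was 0.16, where 49.2% of all genes tested were above 0 and their median was -0.01.

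**Figure D1:**
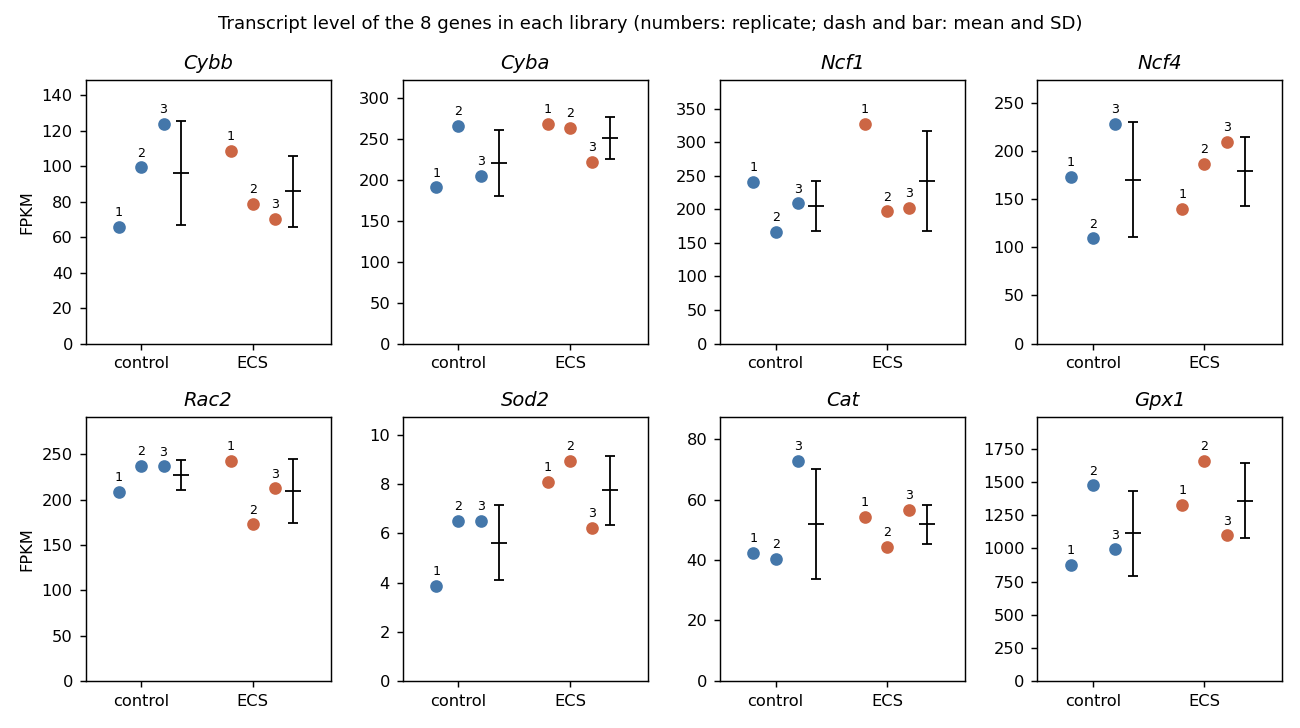
FPKM (vertical axis, from 0, a different scale in each panel) of the 8 genes in the 3 control and 3 ECS libraries; each point is 1 library with its replicate number, and the dash and bar are the mean and SD of the group. In every panel the control and ECS points overlap in range; Gpx1 reaches 1660.1 FPKM in ECS 2 while Sod2 is at most 8.95 FPKM in all 6.

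Cybb encodes gp91phox, the subunit that carries the electrons (GRCm38, chromosome X, 9435252 to 9487771, minus strand). Values are FPKM and means carry the SD over the 3 pools of a group. It was at 65.6, 99.3 and 124 FPKM in control libraries 1 to 3 and 108, 78.6 and 70.0 in ECS libraries 1 to 3. The highest and the lowest library were both controls, and all 3 ECS values lay between them. The means were 96.3 ± 29.3 FPKM for the control pools and 85.7 ± 20.2 for the ECS pools, a log2 fold change of -0.14 ± 0.32 (SE) with a 95% interval from -0.89 to 0.61 and a limma adjusted p of 1.00. The direction turned to 0.06 when control 3 was left out.

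Cyba encodes p22phox, which holds gp91phox in the membrane (chromosome 8, 122424776 to 122432930, minus strand). It was at 191, 266 and 205 FPKM in control libraries 1 to 3 and 268, 263 and 222 in ECS libraries 1 to 3. Control 2 lay among the ECS values, and the other two controls were below all of them. The mean was 220.4 ± 40.0 FPKM for the control pools and 251 ± 25.4 for the ECS pools, and the log2 fold change was 0.20 ± 0.23 (SE, 95% interval -0.34 to 0.73, limma adjusted p 1.00). Without control 1 the value was 0.10. The deposited locus of Cyba spans 119910360 to 124345724 and is shared by 188 rows of the table. The gene lies inside Gm20388, a gene model on the other strand that shares 0 of its exonic bases and was at 9.41 to 20.2 FPKM. The ratio of Cybb to Cyba was 0.344, 0.373 and 0.605 in control libraries 1 to 3 and 0.404, 0.299 and 0.316 in ECS libraries 1 to 3. Transcripts of p22phox thus exceeded those of gp91phox per unit of length in all 6 libraries, by 1.65 to 3.35 times, and the groups overlapped in the ratio.

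Ncf1 encodes p47phox, the organizer subunit that is phosphorylated when the oxidase is switched on (chromosome 5, 134220053 to 134229625, minus strand). It was at 241, 167 and 209 FPKM in control libraries 1 to 3 and 328, 197 and 202 in ECS libraries 1 to 3. ECS 1 stood above the rest, and the other two ECS libraries lay within the control range. The means were 206 ± 37.4 FPKM for the control pools and 242 ± 74.2 for the ECS pools, with a log2 fold change of 0.21 ± 0.28 (SE, 95% interval -0.46 to 0.88, limma adjusted p 1.00). Without ECS 1 it was -0.03. Ncf1 shares 408 exonic bases (11.1%) with Gtf2ird2 on the other strand, which was at 5.67 to 20.5 FPKM; no source used here says if the counting took strand into account.

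Ncf4 encodes p40phox, which binds a membrane lipid of the phagosome (chromosome 15, 78244801 to 78262580, plus strand). It was at 173, 109 and 228 FPKM in control libraries 1 to 3 and 139.7, 187 and 209.6 in ECS libraries 1 to 3. As for Cybb, both extremes were controls. The mean was 170.2 ± 59.6 FPKM for the control pools and 179 ± 35.7 for the ECS pools, and the log2 fold change was 0.11 ± 0.33 (SE, 95% interval -0.65 to 0.88, limma adjusted p 1.00). It ran from -0.17 without control 2 to 0.36 without control 3. The ratio of Ncf4 to Ncf1 was lowest in ECS 1 at 0.427 and highest in control 3 at 1.09.

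Rac2 encodes the Rac GTPase of haematopoietic cells that completes the active oxidase (chromosome 15, 78559167 to 78572783, minus strand). It was at 208, 237 and 237 FPKM in control libraries 1 to 3 and 243, 173 and 212 in ECS libraries 1 to 3. The ECS group held both the highest and the lowest library. The means were 227 ± 16.5 FPKM for the control pools and 209 ± 35.1 for the ECS pools, with a log2 fold change of -0.13 ± 0.22 (SE, 95% interval -0.66 to 0.39, limma adjusted p 1.00). It was -0.24 without ECS 1 and -0.00053 without ECS 2. Its SD within groups, 0.19 on the log2 scale, was smaller than that of 88.8% of the 571 genes within 2-fold of its level. Cyba was similar in this, with a smaller SD than 86.3% of 533 such genes, whereas Ncf4 had a smaller SD than 39.8% of 696.

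Summed over the 5 oxidase genes, the level was 879, 879 and 1002 FPKM in control libraries 1 to 3 and 1087, 898 and 916 in ECS libraries 1 to 3. ECS 1, the library with the fewest genes above 0, was highest and the remaining ECS libraries lay between the controls.

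Sod2 encodes the manganese superoxide dismutase of mitochondria (chromosome 17, 13006846 to 13040063, plus strand). It was at 3.86, 6.51 and 6.50 FPKM in control libraries 1 to 3 and 8.09, 8.95 and 6.21 in ECS libraries 1 to 3. ECS 1 and ECS 2 were above all controls, while ECS 3 was below control 2 and control 3. The means were 5.63 ± 1.53 FPKM for the control pools and 7.75 ± 1.40 for the ECS pools. The log2 fold change was 0.42 ± 0.38 (SE), the largest of the 8, with a 95% interval from -0.46 to 1.30, which reaches a 2.46-fold difference, and a limma adjusted p of 1.00. Without control 1 the value was 0.21. Its order over the 6 libraries, with ECS 2 highest, then ECS 1, control 2, control 3, ECS 3 and control 1, was also the order of Hbb-bs, a beta globin gene of red blood cells. The values of Hbb-bs were 156, 30923 and 16524 FPKM in control libraries 1 to 3 and 34362, 73251 and 619 in ECS libraries 1 to 3. That order was shared by 31 of 11314 other genes tested (0.274%), among them the oligodendrocyte gene Mbp. In Sod2 it rests on a near tie between control 2 and control 3, at 6.513 and 6.505 FPKM. Summed over 8 erythroid markers the level was 2247 to 32997 FPKM in control and 7236 to 77406 in ECS. The markers did not share 1 order. Hbb-bt and Alas2 ran as Hbb-bs did. Hba-a1 reached 6510.4 FPKM in ECS 3 and 2059 FPKM in control 1 but was listed at 0, like Hba-a2, in the remaining libraries. Hba-a1 thus made up most of the lowest sum of each group, 2247 in control 1 and 7236 in ECS 3. Whether its zeros are failed estimates was not tested. Slc4a1 and Car2 were highest in control 2, at 55.6 and 187 FPKM. Hbb-bs was chosen for this after its values were seen. With Hbb-bs as a covariate, the Sod2 log2 fold change was 0.31; the part of red blood cell RNA in the result was not tested further.

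Cat encodes catalase, the peroxisomal enzyme that splits hydrogen peroxide (chromosome 2, 103453849 to 103485160, minus strand). It was at 42.3, 40.4 and 72.8 FPKM in control libraries 1 to 3 and 54.3, 44.4 and 56.7 in ECS libraries 1 to 3. Control 3 stood above the rest, and the ECS libraries lay between the control extremes. The mean was 51.8 FPKM in both groups, with an SD of 18.2 in control and 6.52 in ECS. The log2 fold change was 0.04 ± 0.31 (SE, 95% interval -0.69 to 0.77, limma adjusted p 1.00), and it took either sign across the alternatives in processing.

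Gpx1 encodes the main cytosolic glutathione peroxidase (chromosome 9, 108338903 to 108340343, plus strand). It was at 873, 1476 and 993 FPKM in control libraries 1 to 3 and 1326, 1660.1 and 1098 in ECS libraries 1 to 3. Control 2 was second only to ECS 2, and the other two controls were below every ECS library. The means were 1114 ± 319 FPKM for the control pools and 1361 ± 283 for the ECS pools, with a log2 fold change of 0.31 ± 0.27 (SE, 95% interval -0.34 to 0.95, limma adjusted p 1.00), and 0.15 without control 1. Within each library Gpx1 ranked between place 56 and place 110 of all genes. The ratio of Gpx1 to Cat was 13.7 to 36.5 in control and 19.4 to 37.4 in ECS.

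**Figure D2:**
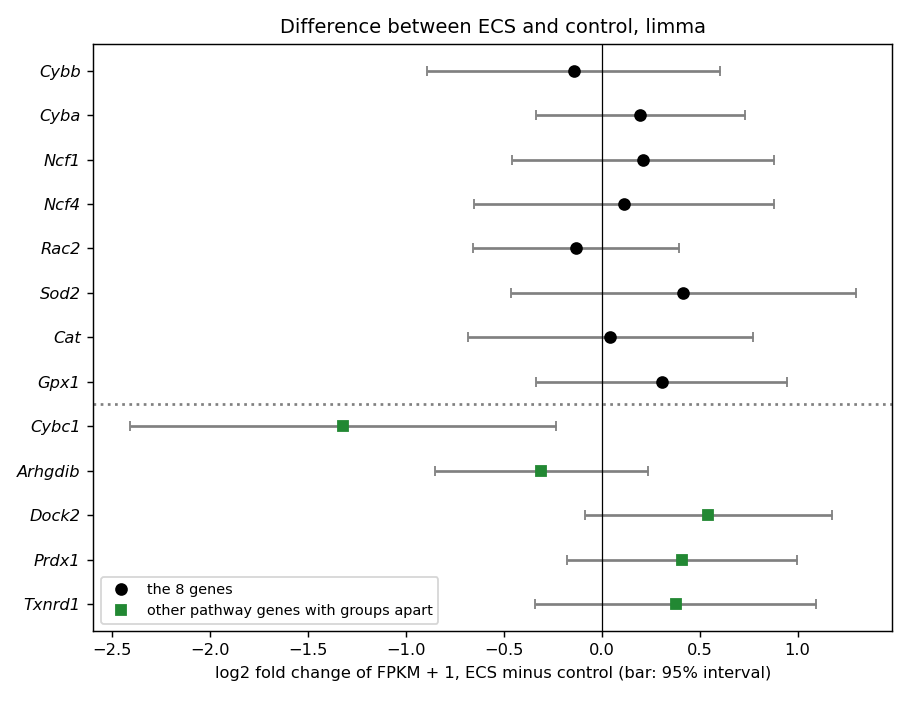
Log2 fold change of FPKM + 1, ECS minus control (horizontal axis), from limma for the 8 genes (circles, above the dotted line) and for 5 further pathway genes whose groups did not overlap (squares); bars are 95% intervals, 3 libraries per group. All 8 intervals include 0, and of the squares that of Cybc1 does not.

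By mean FPKM over the 6 libraries the order was Gpx1, Cyba, Ncf1, Rac2, Ncf4, Cybb, Cat and Sod2. Gpx1, at 873 or more, and Sod2, at 8.95 or less, did not overlap with their neighbours in any library. Cyba, Ncf1, Rac2 and Ncf4 overlapped with each other, Ncf4 with Cybb, and Cybb with Cat. The highest library was control 3 for 3 genes, ECS 1 for 3 and ECS 2 for 2, and the lowest was control 1 for 4, control 2 for 3 and ECS 2 for 1.

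**Figure D3:**
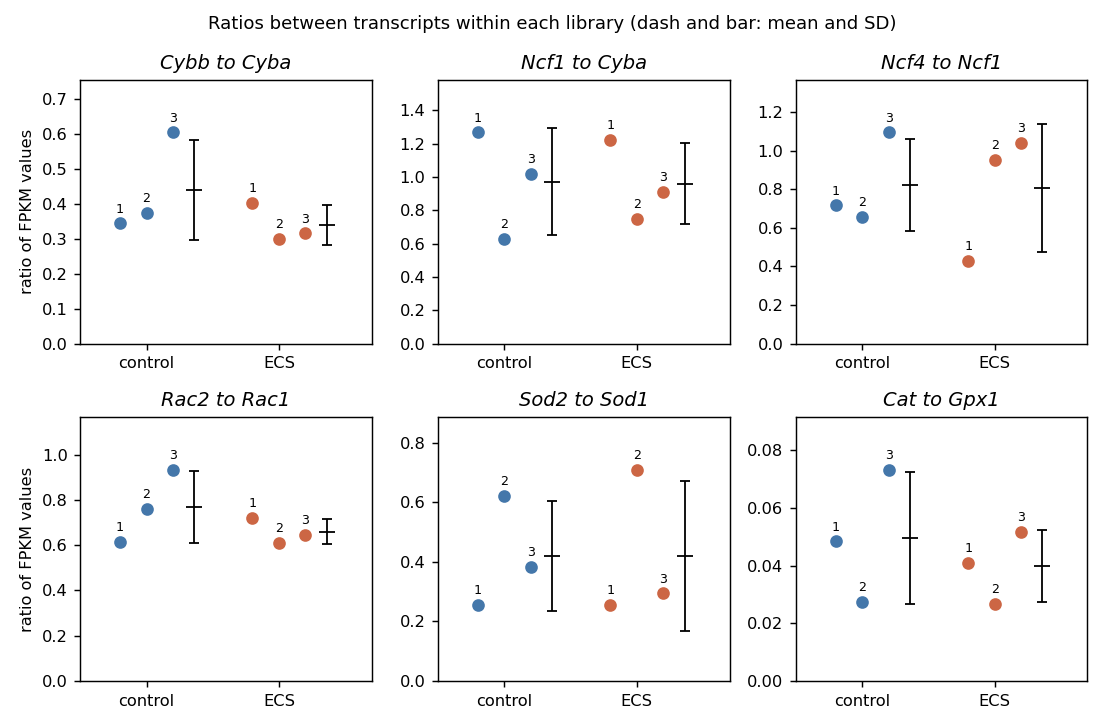
Ratio of FPKM values between pairs of transcripts within each library (vertical axis, no unit, from 0) for control and ECS; each point is 1 library with its replicate number, and the dash and bar are the group mean and SD. The groups overlap in all 6 ratios, and Cybb to Cyba runs from 0.299 to 0.605.

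The other transcripts of the pathway were read from 6 lists of 52 genes, of which 42 were tested and 0 passed. Among the tested, 22 had higher and 20 lower values in ECS, and their median log2 fold change was 0.04. The groups did not overlap for 6 of the 42, 4 with higher and 2 with lower ECS values, where the share over all genes tested was 7.49% (3.7% higher, 3.79% lower).

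Rac1, the GTPase found in most cells, was at 253 to 340.2 FPKM in control and 282 to 336 in ECS, and 51.4% of its exonic bases are shared with Daglb on the other strand. The ratio of Rac2 to Rac1 was 0.613, 0.762 and 0.933 in control libraries 1 to 3 and 0.721, 0.612 and 0.647 in ECS libraries 1 to 3. The groups overlapped in it.

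The other NADPH oxidases were low or listed at 0. Of 9 genes, Nox3, Nox4, Noxa1, Duox1, Duox2 and Duoxa2 were listed at 0 in all 6 libraries. Nox1 was at 0.51 FPKM in control 1, 0.13 in ECS 2 and listed at 0 in the remaining libraries. Duoxa1 was at 2.47 FPKM in control 1, 1.84 in ECS 2 and 0.93 in ECS 3, and listed at 0 elsewhere. Noxo1 was at 1.42 and 2.58 FPKM in control 1 and control 3 and at 6.94 and 1.09 in ECS 2 and ECS 3, and was listed at 0 in control 2 and ECS 1, but 70.4% of its exonic bases are shared with Tbl3 on the other strand. Among NADPH oxidases of these libraries, Cybb was thus the catalytic subunit with the highest FPKM in each library.

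**Figure D4:**
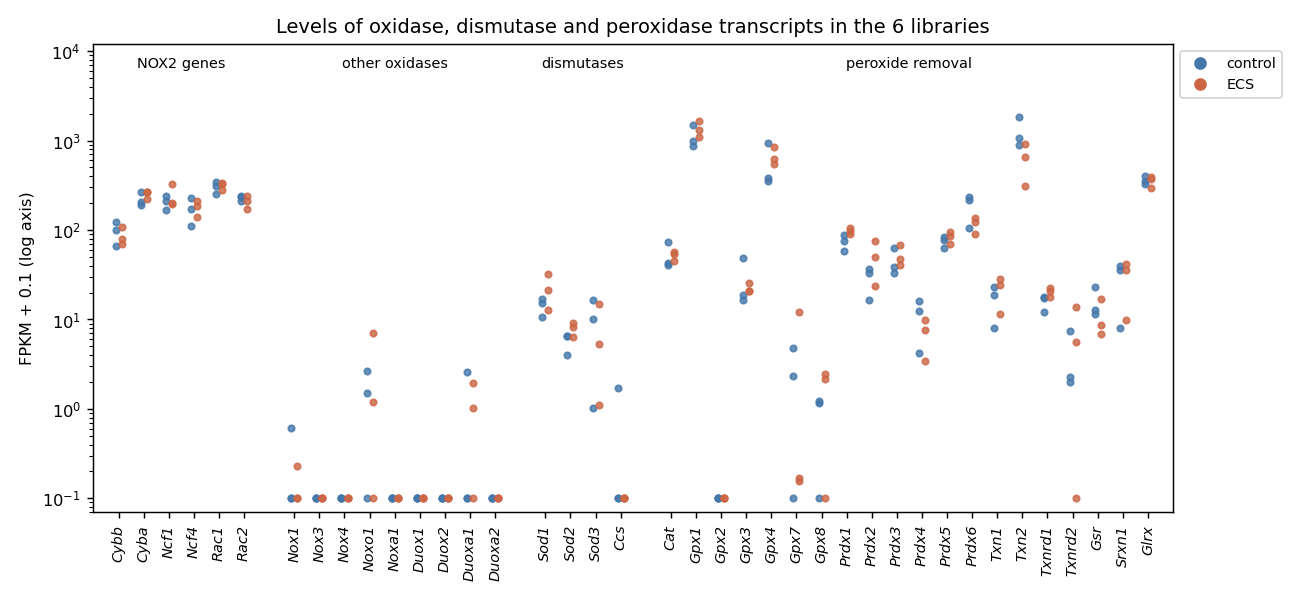
FPKM + 0.1 on a log axis (vertical) of oxidase, dismutase and peroxide removal transcripts, with 1 point per library, control and ECS in different colours; points at the bottom are genes listed at 0. The genes of the phagocyte oxidase that are drawn lie between 65.6 and 340.2 FPKM, while 6 of the 9 genes of other oxidases are at the bottom in all 6 libraries.

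Of 13 regulators of the oxidase, 6 had higher and 7 lower values in ECS and 0 passed. Cybc1, listed under its older symbol BC017643 and matched by gene ID, encodes a chaperone that the gp91phox protein needs (chromosome 11, 121222588 to 121229322, minus strand). It was at 19.2, 11.3 and 19.4 FPKM in control libraries 1 to 3 and 2.91, 7.31 and 9.04 in ECS libraries 1 to 3. All ECS values were below all control values, with a log2 fold change of -1.32 ± 0.46 (SE, 95% interval -2.41 to -0.23). Its unadjusted limma p was 0.0238 and its adjusted p 1.00, so it did not pass the test. Arhgdib, which encodes a GDP dissociation inhibitor that keeps Rac proteins in the cytosol, was at 862, 1354 and 916 FPKM in control libraries 1 to 3 and 806, 818 and 853 in ECS libraries 1 to 3. These groups did not overlap either, at a log2 fold change of -0.31 ± 0.23 (SE), which was -0.11 without control 2 and -0.0064 with the level of neutrophil markers as a covariate. Dock2, an exchange factor that activates Rac, was at 89.3, 58.4 and 64.7 FPKM in control libraries 1 to 3 and 121, 89.8 and 97.2 in ECS libraries 1 to 3. Its ECS values were all above the controls, by at least 0.52 FPKM. The log2 fold change was 0.54 ± 0.27 (SE, 95% interval -0.09 to 1.17), and 0.23 with that covariate. Cybc1 had a larger change in the fit with that covariate, at -1.53. Arhgdia and Prex1, a further inhibitor and a further exchange factor of Rac, had log2 fold changes of 0.03 and 0.05 and overlapping groups.

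Of the dismutases beside Sod2, Sod1, the cytosolic copper and zinc enzyme, was at 15.1, 10.5 and 17.0 FPKM in control libraries 1 to 3 and 31.9, 12.6 and 21.1 in ECS libraries 1 to 3. The groups overlapped. The ratio of Sod2 to Sod1 was 0.257, 0.621 and 0.382 in control libraries 1 to 3 and 0.254, 0.709 and 0.294 in ECS libraries 1 to 3, so that Sod1 exceeded Sod2 in every library. Sod3, the secreted enzyme, was at 0.93 to 16.6 FPKM in control and 0.99 to 15.0 in ECS. Ccs, the copper chaperone of Sod1, was at 1.60 FPKM in control 2 and listed at 0 in the remaining libraries.

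Of 18 further peroxide removal genes, 17 were tested, 10 had higher and 7 lower values in ECS, and 0 passed. Prdx1, a peroxiredoxin, was at 74.8, 87.6 and 58.7 FPKM in control libraries 1 to 3 and 89.0, 96.3 and 106 in ECS libraries 1 to 3. Txnrd1, the cytosolic thioredoxin reductase, was at 11.9, 17.7 and 17.4 FPKM in control libraries 1 to 3 and 20.7, 22.6 and 17.8 in ECS libraries 1 to 3. In both genes the groups did not overlap, with log2 fold changes of 0.41 ± 0.25 and 0.38 ± 0.31 (SE), which were 0.26 for Prdx1 without control 3 and 0.20 for Txnrd1 without control 1. With the neutrophil marker covariate Txnrd1 was at 0.62. Txn2, the mitochondrial thioredoxin, was at 1068, 893 and 1850 FPKM in control libraries 1 to 3 and 653, 311 and 917 in ECS libraries 1 to 3; ECS 3 exceeded control 2, so the groups overlapped. Its log2 fold change was -1.08 ± 0.45 (SE), with an unadjusted limma p of 0.0456 and an adjusted p of 1.00, and was -0.64 without ECS 2 and -1.42 without ECS 3. Gpx4, which reduces lipid peroxides, Glrx and Prdx6 had overlapping groups, with log2 fold changes of 0.40, -0.03 and -0.61. Of the 7 genes that supply NADPH, 2 had higher and 5 lower values and 0 passed. Among them G6pdx, the first enzyme of the pentose phosphate pathway, was at 93.0 to 115 FPKM in control and 79.4 to 100.3 in ECS. Pgd, Idh2 and Nadk had log2 fold changes of -0.30, -0.23 and -0.16.

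Marker transcripts of the cell types that CD11b beads may select were read beside these genes. Of 14 neutrophil markers, all tested, 13 had lower and 1 higher values in ECS, 0 passed, and their median log2 fold change was -0.51. Summed, they were at 15953 to 27442 FPKM in control and 12616 to 16181 in ECS, and none was listed at 0. Ngp was the 1 neutrophil marker with groups apart, ECS being lower. Of 10 microglial markers, 9 had lower values, with summed levels of 7565 to 10237 FPKM in control and 5917 to 9112 in ECS. Of 7 markers of border-associated macrophages, 6 had higher values, with summed levels of 136 to 145 FPKM in control and 187 to 646 in ECS. Pf4 made up 427 FPKM of the sum in ECS 2 but 6.87 in ECS 3, and Mrc1 had a log2 fold change of -0.03. Cbr2 and Clec10a, at log2 fold changes of 1.48 and 1.40, had all ECS values above all controls. Groups were apart in 7.49% of all genes tested, and 0 of the 7 markers passed. Of 6 monocyte markers, 5 had lower values, with summed levels of 1280.2 to 2104 FPKM in control and 1042 to 1576 in ECS. Over the 6 libraries Chil3 was at 294 to 1112 FPKM, Ly6c2 at 325 to 962 and Plac8 at 268 to 462. Ccr2 was at 1.93 FPKM or less. With the neutrophil marker level as a covariate, an alternative added after the data were seen, the log2 fold changes of 4 oxidase genes changed sign: Cybb was 0.21, Ncf1 -0.06, Ncf4 -0.04 and Rac2 0.03. Cyba was 0.36, Sod2 0.69 and Gpx1 0.53 in that fit, all in their former direction, and no gene was called. The covariate itself differed between the groups: its mean log2 level was 8.52, 9.33 and 9.13 in control libraries 1 to 3. In ECS libraries 1 to 3 it was 8.45, 8.31 and 8.66, so adjusting for it can remove part of the group difference. In the main fit the 4 estimates that changed sign were smaller than their SE. The part of these cells in the results was not tested beyond this fit.

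**Figure D5:**
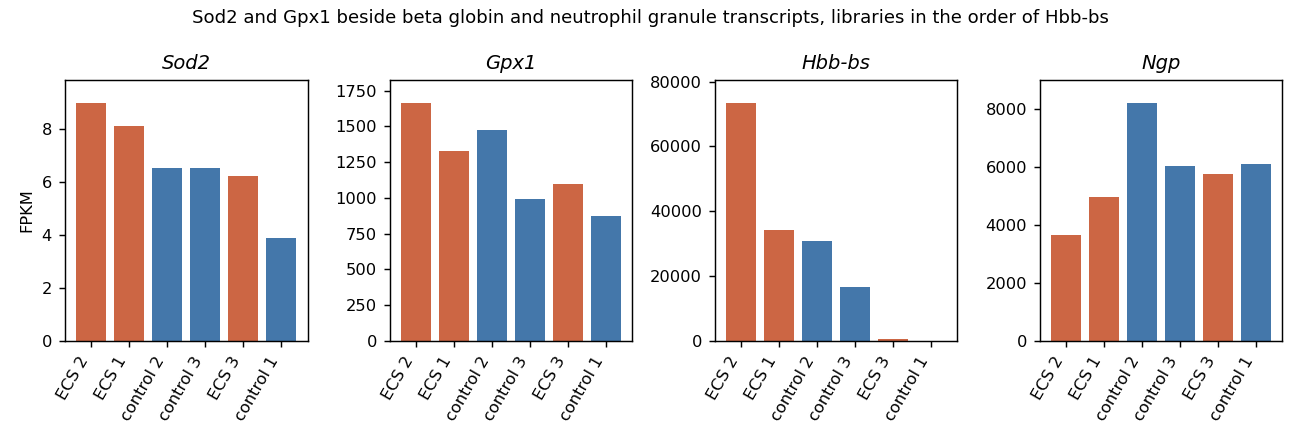
FPKM (bars, from 0) of Sod2, Gpx1, Hbb-bs and Ngp in the 6 libraries, ordered on the horizontal axis by Hbb-bs and coloured by group. The Sod2 bars fall in the same order as those of Hbb-bs, from 8.95 FPKM in ECS 2 to 3.86 in control 1. The Sod2 bars of control 2 and control 3 are nearly level, and Ngp is highest in control 2 at 8184 FPKM.

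The genes whose values were most like each member's over the 6 libraries were looked up among those with a mean of at least 100 FPKM, as the smallest root mean square difference of centred log2(FPKM + 1). The nearest were Plp2 for Cybb at 0.11, Gde1 for Cyba at 0.08, Vps9d1 for Ncf1 at 0.10 and Hnrnpl for Ncf4 at 0.18. They were Actr3 for Rac2 at 0.08, 1810058I24Rik for Sod2 at 0.13, Gpi1 for Cat at 0.13 and Fxyd5 for Gpx1 at 0.11. Each is the smallest of 838 or 839 differences, so the search itself favours small values. The same measure about a member's own mean was 0.17 for Rac2, 0.20 for Cyba and 0.29 to 0.36 for the other members. The next nearest were Rps20, Rap1b, Klf3, Nfkbia, Lsp1, Itgb2, Tsc22d3 and Oaz1, in the same order of members. Gde1, for example, was at 89.4, 121 and 98.8 FPKM in control libraries 1 to 3 and 117, 107 and 100.1 in ECS libraries 1 to 3, a smaller swing than that of Cybb or Ncf4.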

How the data were processed

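The authors deposited 1 table of FPKM per gene, 1 column per library, from poly(A) RNA, per the labels. The submitters' processing notes list TopHat2, Cufflinks, Cuffnorm and GRCm38; tool versions, annotation and strand use were not given in the sources used here. Depth is unknown: no step size put more than 27.9% of low values within 0.1 of whole reads. Chance gives 20% for a single step size, and the best of the many tried can exceed that by chance.

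Values were analysed as log2(FPKM + 1), a scale on which changes of low genes come out too small. The 11315 genes averaging 1 FPKM or more went into a limma test (limma 3.58.1, R 4.3.3; trended variance, two-sided) without the replicate number; the steps were tested on simulated data. Positions are from GENCODE (GRCm38) and figures from matplotlib 3.10.9. The members and lists were chosen with earlier results of these data known. Named are the members, the 4 highest genes of each pathway list, any that passed or had groups apart, the 2 genes most like each member, and leading markers; Txn2 falls under the second part. Alternatives changed the pseudocount, filter, scaling, variance model, libraries, replicate block and row choice. One gene counted among those with groups apart is not reported here. Replicates are pools, and p-values weigh the group difference against the spread between pools, which limma moderates over all genes tested.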

Additional observations from a re-analysis of the deposited data

How the results depend on the processing

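No gene was called in either direction under any of 21 alternatives, with a lowest adjusted p of 0.0812, and the median log2 fold change of all genes ran from -0.09 to 0.02. The filters, variance trends, replicate block and row choice cannot move a fold change of the members; in the 15 alternatives that did, Cyba, Sod2 and Gpx1 kept their direction. The following log2 fold changes had the opposite sign to the reported one, and the cause was not tested. With the neutrophil marker covariate, chosen after seeing the data, they were 0.21 for Cybb, -0.060 for Ncf1, -0.044 for Ncf4, 0.031 for Rac2, -0.050 for Arhgdia, 0.025 for G6pdx, 0.057 for Glrx, -0.48 for Noxo1, 0.15 for Prdx6, -0.22 for Prex1, -0.012 for Rac1 and 0.82 for Sod3. With libraries set to the same total FPKM they were -0.045 for Cat, -0.057 for Arhgdia, -0.040 for Prex1 and -0.019 for Rac1. With quantile normalization they were -0.035 for Cat and -0.019 for Arhgdia, and with library weights 0.057 for Glrx and -0.060 for Prex1. Without control 1 and ECS 3, also chosen after seeing the data, Cat was -0.14. Leaving out 1 library at a time, or that pair, gave ranges of -0.39 to 0.060 for Cybb, -0.029 to 0.44 for Ncf1, -0.17 to 0.36 for Ncf4, -0.14 to 0.31 for Cat, -0.10 to 0.15 for Arhgdia, -0.13 to 0.10 for Glrx, -0.40 to 0.067 for Nadk, -0.51 to 0.99 for Noxo1, -0.12 to 0.20 for Prex1, -0.048 to 0.16 for Rac1 and -1.26 to 0.47 for Sod3. The Hbb-bs covariate was also chosen after seeing the data.

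The labels give both groups replicate numbers 1 to 3 and state no pairing. Same-numbered libraries did not deviate together (r of -0.04, 0.10 and -0.11). These r values were not compared with those of differently numbered libraries, so they do not settle whether the numbers pair them. With the replicate block 0 genes were called, and the log2 fold changes of the members were the same, for example 0.42 for Sod2. Noxo1 has no value with the filter at 5 FPKM.

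The unadjusted 95% interval of the 8 genes reached from 0.52 to 0.88 to either side on the log2 scale. The adjusted test needs larger differences: Cybc1 at -1.32 and Txn2 at -1.08 had an adjusted p of 1.00. Values near 0 may be failed estimates.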
